A study of Mus musculus with 8 samples.

Results

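Growth factors that pass between the stroma and the epithelium of the eye surface were compared between the limbus and the cornea of the mouse. The group holds 10 genes, taken by symbol from the 23420 named genes of the table: the fibroblast growth factor (FGF) ligands Fgf1, Fgf2, Fgf7, Fgf10 and Fgf18, the FGF receptors Fgfr1, Fgfr2 and Fgfr3, hepatocyte growth factor (Hgf) and its receptor Met. All 10 had a row and at least 1 read in each tissue. The tissue came from wild-type C57BL/6J mice, 8 weeks old and with no treatment named, and 16 eyes were dissected into limbal rims, the ring between cornea and sclera, and corneal buttons, the cornea inside that ring. The pieces were pooled by tissue, so the values describe a pool of animals. The labels list 4 samples per tissue, but the table holds only values over both tissues, from which the reads of 1 cornea library and 1 limbus library were worked back. With 1 library per tissue there was no replicate check and no test, and all intervals are exact 95% intervals that cover counting error only.

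Most FGFs are secreted proteins that bind tyrosine kinase receptors together with heparan sulfate, and the bound receptors signal through adaptors to RAS and the MAP kinases. FGF7 and FGF10 are made mainly by stromal cells and act on a splice form of FGFR2 that epithelia carry, whereas FGF1 binds the receptors of the family broadly. FGF2 is the basic FGF, FGF18 prefers FGFR3, and HGF is a stromal factor that is cut to its active form outside the cell and binds MET on epithelia. FGF7 and HGF from keratocytes, the cells of the corneal stroma, are known for their part in healing of the corneal epithelium.

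Depth on named genes was 26104317 reads for the cornea and 21182025 for the limbus. Reads were divided by size factors of 1.03 and 0.967, which gives the normalized reads used here, and all log2 fold differences are limbus over cornea, so that positive values are higher in the limbus. A count of 0 allows up to 3 reads, so genes needed more than 3 reads in at least 1 library to be compared, which 15572 did. Of these, 21.7% were at least 2-fold higher in the limbus and 9.21% at least 2-fold higher in the cornea. Beyond counting error, that is with an interval that leaves out no change, 35.5% lay on the limbal and 36.7% on the corneal side, and the median log2 fold difference was 0.01. Scaling to total reads in place of size factors raises every log2 fold difference by 0.21 and the share of genes above 0 from 50.6% to 61.6%. The labels were matched by the markers of both tissues: Krt12 and Aldh3a1, made by the corneal epithelium, had log2 fold differences of -2.19 and -1.22, and Krt15 and Gpha2 of the limbal epithelium had 3.32 and 4.10. Genes of other cell types were also higher in the rims. The summed normalized reads of the 5 skeletal muscle genes were 32.9 for the cornea and 9649 for the limbus, and all 5 were higher in the limbus. For the 5 blood vessel genes, also all higher in the limbus, they were 177 and 2143. For conjunctival epithelium they were 37861 and 231668, with 4 of 4 genes tested higher in the limbus and 1 read of Muc5ac, the goblet cell mucin, in each library. The sums were 76.4 and 1810 for smooth muscle and pericytes, 2319 and 6502 for corneal endothelium, 306 and 1644 for melanocytes, 731 and 2373 for macrophages and 4247 and 6958 for Schwann cells, and every gene tested of these lists was higher in the limbus. For mast cells they were 4999 and 2818, with 3 genes higher in the limbus and Kit, which other cells also make, lower. Des of the smooth muscle and pericyte list, which skeletal muscle also makes, and Tpsb2 of the mast cell list had no corneal read.

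Members differed both in amount and in direction. Of the 10 genes, 7 were at least 2-fold higher in the limbus, against a background of 21.7% of genes, and none was 2-fold higher in the cornea, against 9.21%. With counting error taken into account, Fgf1, Fgf7, Fgf18, Fgfr1 and Fgfr3 (5 genes) lay on the limbal side, and Fgfr2 and Met (2 genes) on the corneal side, against 35.5% and 36.7% of all genes. Their median log2 fold difference was 1.35, beside 0.01 over all genes tested. The genes were picked with earlier results of these data known, so these counts describe the group only. Not scaled to length, the 4 receptors took 97.4% of the corneal and 95.6% of the limbal reads of the 10 genes, and the 6 ligands the small rest.

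**Figure D1:**
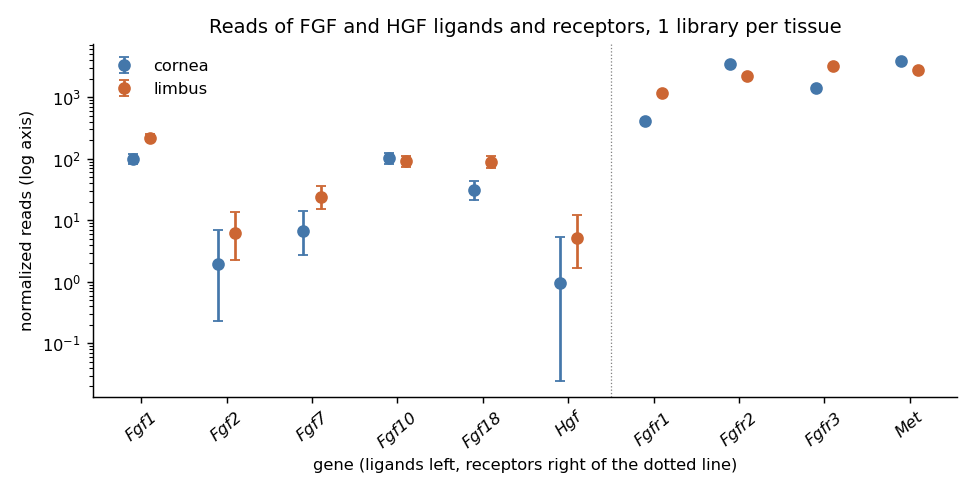
Normalized reads on a log axis for the 10 genes, 1 point per library, cornea in blue and limbus in orange, with exact 95% Poisson intervals for counting error. The points of the ligands stay below 250 normalized reads and those of Fgf2 and Hgf below 10, whereas those of the 4 receptors lie between 408 and 3901.

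Among the receptors, Fgfr2 and Met lay on the corneal side and Fgfr1 and Fgfr3 on the limbal side. Fgfr2 encodes the receptor whose epithelial form binds FGF7 and FGF10. It had 3601 corneal and 2159 limbal reads, which are 3483 and 2232 normalized. This made it 1.56-fold higher in the cornea (95% CI 1.48 to 1.65), a log2 fold difference of -0.64. Met, the HGF receptor, had 4033 corneal and 2725 limbal reads, or 3901 and 2817 normalized. Its level was 1.38-fold higher in the cornea (95% CI 1.32 to 1.45), a log2 fold difference of -0.47 that is smaller than that of Fgfr2. Both stayed on the corneal side under total reads, with log2 fold differences of -0.44 and -0.26.

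Fgfr3, a receptor known for its part in bone growth and also present in stratified epithelia, went the other way. It had 1439 corneal and 3109 limbal reads, or 1392 and 3214 normalized, and was 2.31-fold higher in the limbus (95% CI 2.17 to 2.46). Fgfr1, the receptor of many mesenchymal cells, had 422 corneal and 1117 limbal reads, or 408 and 1155 normalized. At 2.83-fold (95% CI 2.53 to 3.17) it had the higher ratio of the pair on the limbal side. In a bulk sample, fewer cells of a type and less RNA per cell cannot be told apart.

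**Figure D2:**
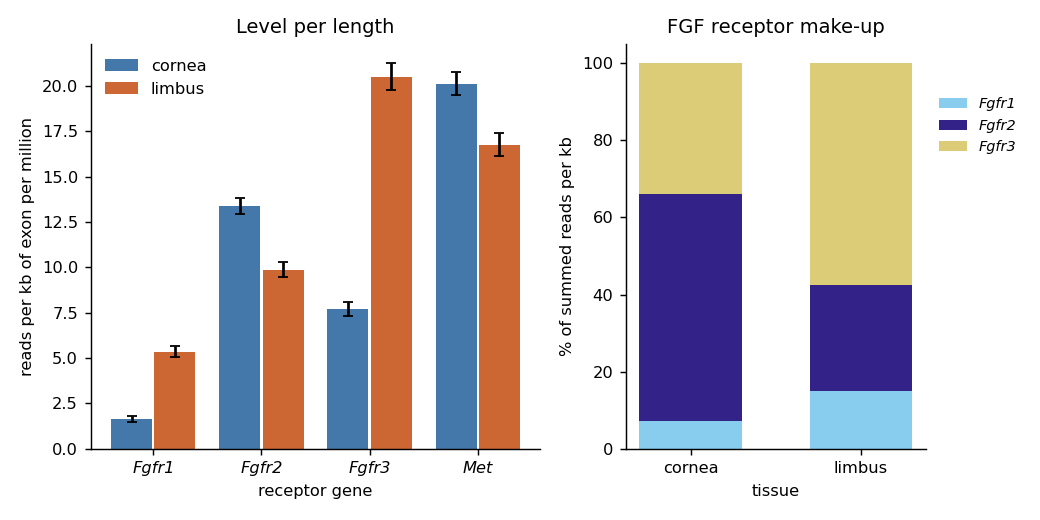
Left, RPKM, linear axis, for the 4 receptor genes with exact 95% counting intervals, bars from 0, cornea in blue and limbus in orange. Right, the share of each FGF receptor in their summed reads per kilobase, where Fgfr2 leads in the cornea with 58.9% and Fgfr3 in the limbus with 57.4%.

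The balance between receptors inside a library does not depend on the scaling between libraries. For each Fgfr2 read the cornea had 0.400 Fgfr3 reads (95% CI 0.376 to 0.425) and the limbus 1.44 (95% CI 1.36 to 1.52), a 3.60-fold shift (exact conditional 95% CI 3.32 to 3.92). Fgfr1 reads per Fgfr2 read went from 0.117 (95% CI 0.106 to 0.130) in the cornea to 0.517 (95% CI 0.481 to 0.556) in the limbus, a 4.41-fold shift (95% CI 3.89 to 5.01). The pair on the limbal side moved more alike, with Fgfr1 reads per Fgfr3 read at 0.293 for the cornea against 0.359 for the limbus, a 1.23-fold shift (95% CI 1.08 to 1.40). Met and Fgfr2 also moved nearly together, with Met reads per Fgfr2 read at 1.12 for the cornea against 1.26 for the limbus, a 1.13-fold shift (95% CI 1.05 to 1.21). Per length of exon, the 3 FGF receptors split in the cornea into 58.9% Fgfr2, 33.9% Fgfr3 and 7.21% Fgfr1. In the limbus the order of the first pair was reversed, with 57.4% Fgfr3, 27.6% Fgfr2 and 15.0% Fgfr1. Counted as reads and not per length, Fgfr2 took 65.9% (95% CI 64.7 to 67.2) of the reads of the 3 genes in the cornea and 33.8% (95% CI 32.7 to 35.0) in the limbus.

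Values of cell type genes are set beside these results. The 4 corneal epithelial genes tested summed to 2326440 normalized reads in the cornea against 964381 in the limbus, all 4 lower in the limbus, and the 5 limbal epithelial genes to 47922 against 434932, all 5 higher. Pax6, made throughout the corneal and limbal epithelium, had a log2 fold difference of -0.69 (95% CI -0.73 to -0.66). Krt12, Aldh3a1 and Krt5 of the same corneal list had -2.19, -1.22 and -0.41, beside -0.64 for Fgfr2. The 5 keratocyte genes summed to 55170 against 61674, with 2 on either side beyond counting error, and 6 genes of other fibroblasts to 4387 against 7166, with 4 on the limbal and 2 on the corneal side. These sums hide wide differences between genes. Dcn alone held 29807 and 46346 of the keratocyte sums. Kera had a log2 fold difference of -2.99, Angptl7 -0.50, Lum -0.01, Dcn 0.64 and Ptgds 3.49. The other fibroblast genes ran from -0.58 for Dpt to 9.33 for Pi16, which had 1 corneal read. No gene tested of these lists was at 0 in a library, and 1 further gene of the corneal epithelial list was not analysed here. The part of these and the other cell type lists in the receptor and ligand values was not tested.

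Fgfr2 and Fgfr3 are shown by the 250 bases upstream of their annotated start, from RefSeq on GRCm38.p6, because they are the FGF receptors with the most reads and went in opposite directions. Capitals mark the GC box GGGCGG or its reverse complement CCGCCC. The window of Fgfr2 is chr7:130266809-130267058 on the minus strand, and that of Fgfr3 chr5:33721474-33721723 on the plus strand, the first of its 2 annotated starts.
Fgfr2: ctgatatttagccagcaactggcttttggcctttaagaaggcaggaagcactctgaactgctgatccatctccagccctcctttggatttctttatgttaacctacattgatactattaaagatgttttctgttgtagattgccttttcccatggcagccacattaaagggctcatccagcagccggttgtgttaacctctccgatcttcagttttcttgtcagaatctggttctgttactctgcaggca
Fgfr3: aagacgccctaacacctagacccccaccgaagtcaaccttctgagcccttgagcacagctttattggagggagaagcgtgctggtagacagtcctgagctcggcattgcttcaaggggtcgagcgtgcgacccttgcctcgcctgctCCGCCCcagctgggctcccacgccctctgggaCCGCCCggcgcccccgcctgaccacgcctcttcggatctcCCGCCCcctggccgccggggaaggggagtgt
The Fgfr2 window held 2 CpG dinucleotides and no GC box, below the median of 6 CpG over all windows. The Fgfr3 window held 19 CpG and 3 GC boxes. Of 32851 promoter windows of this length, 32.7% held a GC box on either strand, as did a window of 5 of the 8 members with a promoter in the table. TATAAA was in none of the 8 and in 12.4% of all windows. The table gives the window before an annotated start. That window lies inside the gene's RefSeq span for Met and for the second starts of Fgfr3 and Hgf, and partly so for Fgf2. By the GENCODE annotation, the windows of Fgfr2, Fgf10, Fgf2 and the same second starts lie inside the gene. Those of Met and of the first start of Fgfr3 lie partly inside it. These matches describe sequence only.

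Among the ligands, Fgf1, Fgf7 and Fgf18 lay on the limbal side beyond counting error, and Fgf10 was not detectably different. Fgf1 had 103 corneal and 214 limbal reads, or 99.6 and 221 normalized, a log2 fold difference of 1.15 (95% CI 0.81 to 1.5). Fgf18, a ligand of the FGF8 subfamily, had 32 and 87 reads, or 31.0 and 89.9 normalized, a log2 fold difference of 1.54 (95% CI 0.94 to 2.17). Fgf7, the keratinocyte growth factor, rested on only 7 and 23 reads, which gave 1.81 with limits of 0.54 and 3.28. The intervals of the 3 genes overlap, so no order among their ratios can be given.

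Fgf10, the closest relative of Fgf7, had 105 corneal and 88 limbal reads, or 102 and 91.0 normalized. Its log2 fold difference was -0.16 (95% CI -0.58 to 0.26), and its sign depended on the scaling, with 0.05 under total reads. The Fgf7 to Fgf10 read ratio was 0.067 (95% CI 0.026 to 0.142) in the cornea and 0.261 (95% CI 0.158 to 0.417) in the limbus, a shift of 3.92-fold (exact conditional 95% CI 1.53 to 11.3). Fgf10 was thus the more abundant of these FGFR2 ligands in both tissues, by reads and per length, where the Fgf7 to Fgf10 ratio was 0.094 and 0.370. Fgf1 reads per Fgf10 read, not scaled to length, were 0.981 (95% CI 0.740 to 1.30) in the cornea and 2.43 (95% CI 1.89 to 3.15) in the limbus, and per length the ratios were 0.826 and 2.05.

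Fgf2 and Hgf were near the limit of detection. Fgf2 had 2 corneal and 6 limbal reads, a log2 fold difference of 1.68 (95% CI -0.80 to 5.02). Hgf had 1 and 5 reads, a log2 fold difference of 2.42 (95% CI -0.74 to 7.98). Both exceeded 2-fold as point values, but neither difference was detectable at this depth. Met, the receptor for Hgf, thus had 2725 or more reads in each library and its ligand at most 5, which per length is 16.8 RPKM or more against 0.033 or less. Nudt6, which lies on the opposite strand and shares 640 exon bases with Fgf2, had 112 corneal and 131 limbal reads. The kit keeps the strand, but whether counting used it is not given in the sources used here.

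**Figure D3:**
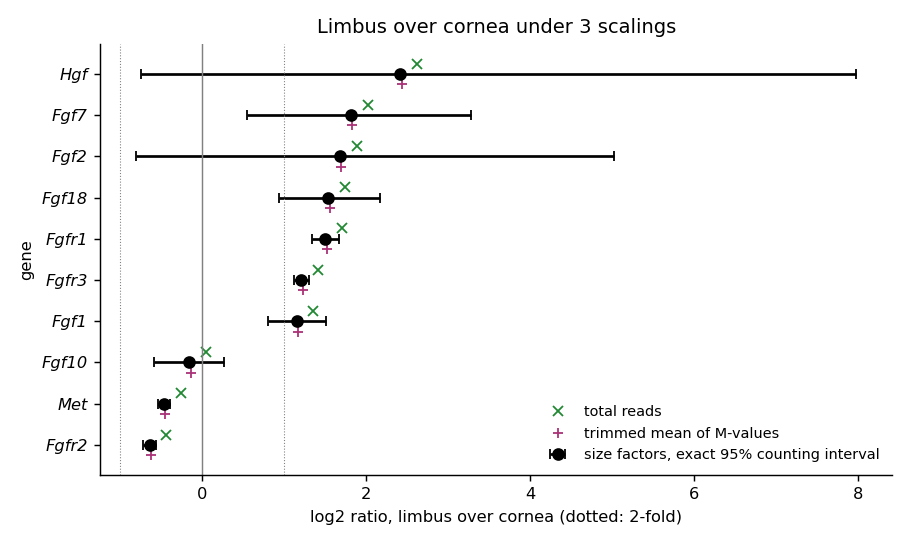
Log2 fold difference of limbus over cornea for each of the 10 genes with its exact 95% counting interval (black), and the same value after scaling to total reads (green crosses) or by a trimmed mean of M-values (purple plus signs). Under all 3 scalings 7 genes lie above 0 and Fgfr2 and Met below, and Fgf10 changes sign under total reads.

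Read numbers of different genes also depend on their length, so levels were ordered per kilobase of exon, in the unit RPKM, which also scales to the library's total reads, with the union of all annotated exons as length. In the cornea Met was highest at 20.1 RPKM, followed by Fgfr2 at 13.4, Fgfr3 at 7.70 and Fgfr1 at 1.64. The ligands followed with Fgf18 at 1.03, Fgf10 at 0.874 and Fgf1 at 0.722, whose intervals overlap, and then Fgf7 at 0.083, Fgf2 at 0.011 and Hgf at 0.0053, each overlapping its neighbor. In the limbus Fgfr3 came first at 20.5 RPKM, before Met at 16.8, Fgfr2 at 9.87 and Fgfr1 at 5.34. Fgf18 had 3.46 RPKM there, Fgf1 1.85, Fgf10 0.903, Fgf7 0.334, Fgf2 0.042 and Hgf 0.033, and of all neighbors in this order only the last pair had overlapping intervals. The order at the top of the cornea depended on the length used: per kilobase of the longest transcript Fgfr2 had 813 reads and Met 592. With that length the limbal order of the receptors was Fgfr3 with 732, Fgfr2 with 487 and Met with 400.2 reads per kilobase.

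The 10 genes are spread over 9 chromosomes of GRCm38, as RefSeq places them. Fgfr2 lies on chromosome 7 from 130162451 to 130266808, Met on chromosome 6 from 17463349 to 17573980, and Fgfr1 on chromosome 8 from 25518759 to 25575718. Chromosome 5 holds both Fgfr3, from 33721724 to 33737068, and Hgf, from 16553495 to 16619439. Fgf1 is on chromosome 18 (38838672 to 38929470), Fgf2 on chromosome 3 (37348477 to 37410106), Fgf7 on chromosome 2 (126034658 to 126091185), Fgf10 on chromosome 13 (118714699 to 118792573) and Fgf18 on chromosome 11 (33116970 to 33147400). All are protein-coding, and the reads are counts per gene, so splice forms such as those of Fgfr2 cannot be told apart. Arhgap26, on the opposite strand, overlaps the introns of Fgf1 and shares no exon base with it. It had 258 corneal and 170 limbal reads, the reverse of Fgf1. Fam227b, opposite to Fgf7, shares no exon base with it and was listed at 0. Noncoding genes with shared exon bases, not analysed here, are G630022F23Rik with 948 bases of Fgfr3, Gm43489 with 484 of Hgf, Gm43439 with 255 of Fgf2, Gm16159 with 164 of Fgfr1 and Gm16263 with 69 of Fgf10.

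The rest of the FGF family was thinly covered. Of all 22 FGF ligand genes, 10 were listed at 0, which allows up to 3 reads per library, and 9 had more than 3 reads in a library, among them the 5 members. Of all 23420 named genes, 5978 were listed at 0 and 15572 had more than 3 reads in a library. Outside the members, the ligand gene past both 2-fold and counting error was Fgf12, an intracellular member of the family, with 4 corneal and 16 limbal reads and a log2 fold difference of 2.10 (95% CI 0.46 to 4.14). Fgfrl1, a receptor-like protein without a kinase, had 103 and 217 reads and a log2 fold difference of 1.17 (95% CI 0.83 to 1.52), close to that of Fgfr3. Fgfr4 had only 16 and 17 reads. The FGF binding proteins, carriers that free FGFs from the matrix, both lay on the corneal side beyond counting error, as did 36.7% of all genes. Fgfbp1 had 9786 corneal and 6669 limbal reads, a log2 fold difference of -0.46 (95% CI -0.50 to -0.41), and Fgfbp3 had 508 and 204 reads, a log2 fold difference of -1.22 (95% CI -1.46 to -0.98).

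Around Hgf and Met, the related ligand and receptor pair went slightly to the corneal side. Mst1, the relative of Hgf, had 367 corneal and 244 limbal reads, and its receptor Mst1r had 1441 and 1219, log2 fold differences of -0.49 (95% CI -0.73 to -0.26) and -0.15 (95% CI -0.26 to -0.03). Under total reads that of Mst1r was within counting error. Of 7 genes for HGF activating proteases and their inhibitors, 5 lay on the limbal and 1 on the corneal side beyond counting error, where 35.5% and 36.7% of all genes did. Hpn, which encodes the membrane protease hepsin, had 5 corneal and 88 limbal reads, a log2 fold difference of 4.23 (95% CI 2.96 to 5.89). Hgfac, the HGF activator, went the other way with 28 and 3 reads and a log2 fold difference of -3.13 (95% CI -5.49 to -1.43). The abundant inhibitor genes Spint1 and Spint2 had log2 fold differences of 0.42 and 0.23.

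Downstream of the receptors, the genes went both ways. Of 11 adaptor and enzyme genes, 3 lay on the limbal and 6 on the corneal side beyond counting error, and of 9 genes tested of the RAS and MAPK cascade 3 and 5, where the shares of all genes were 35.5% and 36.7%. Among those past 2-fold in the cornea were Braf, a kinase of the cascade, with 2254 reads there and 718 in the limbus (log2 fold difference -1.55), and Cbl, which tags active receptors for removal, with 627 and 288 (-1.03). Under total reads Cbl fell short of 2-fold. Gab2, a docking protein, had 62 and 129 reads and a log2 fold difference of 1.15 (95% CI 0.70 to 1.61).

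Feedback inhibitors damp the pathway that turns them on. Of 10 tested, 3 lay on the limbal side, 3 on the corneal side and 4 on neither beyond counting error, against the same shares of all genes. Spred1 was 3.32-fold higher in the cornea, with 1924 and 543 reads. Il17rd, a membrane inhibitor of FGF signaling, was 3.39-fold higher in the limbus with 51 and 162 reads, and Spred3 had 7 and 25 reads. Dusp6, the ERK phosphatase, had 1748 corneal and 950 limbal reads, a log2 fold difference of -0.78 (95% CI -0.90 to -0.67). The other genes tested of this list did not share that difference. Spry1 had a log2 fold difference of -0.23, Spred2 -0.06, Spry2 0.02, Spry4 0.10 and Dusp5 0.13. Dusp4, on 5 and 9 reads, had 0.94. Of the ETS factors that FGF signaling is known to raise, Etv5 had 356 and 188 reads and Etv4 134 and 66, log2 fold differences of -0.83 (95% CI -1.09 to -0.57) and -0.93 (95% CI -1.37 to -0.49), and Etv1 had 16 and 11. Of the 3 ETS factors tested, 2 lay on the corneal side beyond counting error, as did 36.7% of all genes. Dusp6, Etv4 and Etv5 were singled out after their values were seen, and all of them stayed on the corneal side under total reads.

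**Figure D4:**
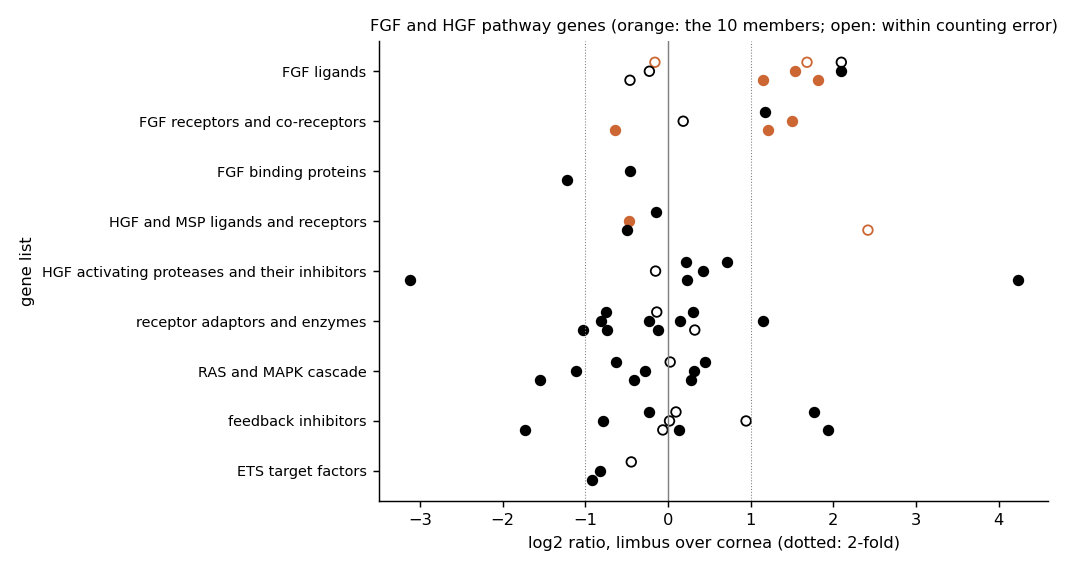
Log2 fold difference of limbus over cornea for each gene of the pathway lists with more than 3 reads in a library, 1 point per gene, the 10 members in orange. Filled points lie beyond counting error and open points within it. The 3 ETS factors, of which Etv1 is within counting error, and both FGF binding proteins lie left of 0. Of all genes tested, 50.6% lie right of 0.

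Over the 50 pathway genes tested that are no members, 16 lay on the limbal and 21 on the corneal side beyond counting error, against 35.5% and 36.7% of all genes. At least 2-fold, 7 lay on the limbal and 6 on the corneal side, against 21.7% and 9.21% of all genes. Under total reads these counts became 19 and 17 beyond counting error, and 8 and 4 at 2-fold. The shares of all genes under that scaling are not given here. Their median log2 fold difference was -0.13, beside 0.01 over all genes tested and 1.35 over the 10 ligands and receptors.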

How the data were processed

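Values came from 1 table that sets both tissues against each other. Per the labels and the study's methods, stranded total RNA was sequenced in paired ends on an Illumina machine and mapped to GRCm38 (mm10) in CLC Genomics Workbench, with trimmed mean of M-values normalization. The authors deposited a signal per gene, the average of size-factor-scaled reads of both libraries. They also deposited a shrunken log2 fold change, its standard error, p-values and adjusted p-values of their own comparison, none of which is printed. The log2 fold change and standard error served only to find the reads, and the p-values were not used. The table's name and column names are those of DESeq, which the authors' text leaves unnamed.

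Of 40904 rows, 17484 name no gene and stayed out, and 5978 named genes have a mean of 0. The other 17442 means are sums of whole reads, with 109 cornea reads equal in weight to 102 limbus reads. A negative binomial fit with a normal prior on the fold change was solved backwards for both reads, and the nearest whole pair with the deposited mean was taken. The mean alone fixes the pair for 6143 genes, among them Fgf2, Fgf7, Fgf10, Fgf18 and Hgf. Of the 11299 others, 11280 missed whole numbers by under 0.1 reads, and the next pair was at least 1115 times farther off for the other members. Tested on simulated data for the limbus against cornea comparison, the reads of 17068 of 17068 genes were found exactly. The reads are derived values, not a deposited count table.

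None of the 4 numbered samples per tissue has a column, so each tissue counts as 1 library and nothing was tested. Differences rest on exact Clopper-Pearson intervals for the limbal part of a gene's reads, which cover counting error only, since each tissue has 1 library. The intervals take reads as independent. Where reads are not independent molecules, the intervals are too narrow even for counting error. Named are all members, genes overlapping them, and of each pathway list at most 4 genes past both 2-fold and counting error, besides genes named after their values were seen (Fgfr4, Fgfbp1, Mst1, Mst1r, Spint1, Spint2, Spry1, Spry2, Spry4, Spred2, Dusp4, Dusp5, Dusp6, Etv1, Etv4 and Etv5). The members and lists were chosen with earlier results of these data known. One gene of the RAS and MAPK list was not analysed here. The values of 1 gene that the naming rule picks are not reported here. Exon lengths are from GENCODE M21. Python 3.11.15, numpy 2.4.6 and scipy 1.17.1 were used.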

Additional observations from a re-analysis of the deposited data

How the results depend on the processing

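No paired analysis was possible because the table holds no column for a numbered sample, and for the same reason no replicate could be left out. Choosing the reads by the standard error alone was not run, since the equations need the fold change too. Scaling to total reads moved the log2 fold differences of Fgfr1 to 1.71, Fgfr2 to -0.44, Fgfr3 to 1.41 and Met to -0.26, beyond their counting intervals by construction, and no member beyond counting error changed its direction. The trimmed mean of M-values, a pseudocount of 1 and unrounded reads, the last chosen after seeing the data, left all 10 log2 fold differences inside their intervals. At a 3-fold limit 3 members were higher in the limbus in place of 7, and at 1.5-fold 1 member, Fgfr2, was higher in the cornea in place of 0. For the pathway genes, those higher in the cornea numbered 13 at 1.5-fold and 2 at 3-fold in place of 6, and those 2-fold higher in the limbus fell from 7 to 3 with a mean of at least 50, since fewer genes were tested. Under total reads 8 lay on the limbal and 4 on the corneal side at 2-fold. The shares of all genes under these other settings are not given here, so these counts have no background beside them.

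Levels also depended on the length used. With the longest transcript, reads per kilobase in cornea and limbus were 25.9 and 53.7 for Fgf1, 83.7 and 222 for Fgfr1, 813 and 487 for Fgfr2, 339 and 732 for Fgfr3, and 592 and 400.2 for Met, and the Fgfr2 share of the 3 FGF receptors was 65.8% and 33.8% and that of Fgfr3 27.4% and 50.8%. Exons inside the RefSeq span, chosen after seeing the data, moved none of the 26 levels and shares beyond counting error. Depth limits Fgf2, Fgf7 and Hgf, at 30 reads or fewer in both libraries together.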
